A study of Homo sapiens with 12 samples.

Results

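Decitabine added to talazoparib was examined in EGI-1, an established cholangiocarcinoma cell line with biliary epithelial features. The comparison set the 2 libraries of cells given both drugs (500 nM decitabine with 200 nM talazoparib, the combination) against the 2 libraries of cells given 200 nM talazoparib alone, which are 4 of the 12 samples of the series. All cells were labelled wild type, were grown in DMEM with serum and were collected after 72 h. The 8 EGI-1 libraries were fitted in 1 model of 4 arms, so the vehicle arm (DMSO) and the arm given 500 nM decitabine alone helped to estimate the spread between libraries. Those 4 libraries also gave the effect of decitabine without talazoparib, measured entirely in other libraries. The talazoparib dose of 200 nM comes from the labels and methods, although the library names of that arm contain 50. Nothing states that the replicates were separate cultures, so the p-values measure the spread between libraries, which may be technical.

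Decitabine is a cytidine analogue that is built into DNA during replication, where it traps DNA methyltransferases and marks them for degradation, and genes silenced by promoter methylation can then be transcribed again. Talazoparib blocks the catalytic activity of PARP1 and PARP2 and holds the enzymes on DNA at strand breaks. Replication-dependent histone genes, which supply the histones that package newly made DNA, are transcribed in S phase and yield mRNAs that end in a stem-loop in place of a poly(A) tail.

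With talazoparib the total counts were 23139065 and 33181930, and with the combination 23229034 and 29217007. The 10 biliary epithelial markers checked were detected in all 8 libraries and summed to between 9560 and 10600 CPM, counts scaled to library size. Of 10 hepatocyte markers, 8 had 3 counts or fewer in each library, and of 10 fibroblast markers 6 did, among them DCN, LUM and COL3A1. The fibroblast marker COL1A1 had 788 to 1296 counts. Endothelial markers summed to 28.4 and 27.7 CPM with talazoparib and to 33.1 and 33.4 CPM with the combination. EMCN, ERG and PLVAP had 3 counts or fewer throughout, while CDH5 had 418 to 598 and PECAM1 83 to 150. VWF had 78 and 136 counts with talazoparib and 181 and 173 with the combination, and was called higher (log2 rise 0.863).

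Combination replicate 2 stood apart from the other libraries. The sum of 11 leukocyte markers was 27.8 CPM in it and lay between 4.06 and 6.66 CPM in the other 7 libraries. PTPRC, which encodes the pan-leukocyte antigen CD45, had 381 counts there and at most 7 elsewhere, and CD3E of the T cell receptor complex had 148 against at most 4. In the same library 117 genes exceeded 1 CPM and 3 times the level of every other library, against 2 to 6 such genes in each of the others. Of these 117 genes 31 were tested and 2, not named here, were called. EGI-1 is an epithelial line, and the calls lost without this library, among 93 genes followed for stability, are listed below. The rest of the 431 called genes, which include further genes best known from blood cells, were not followed one by one.

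**Figure D1:**
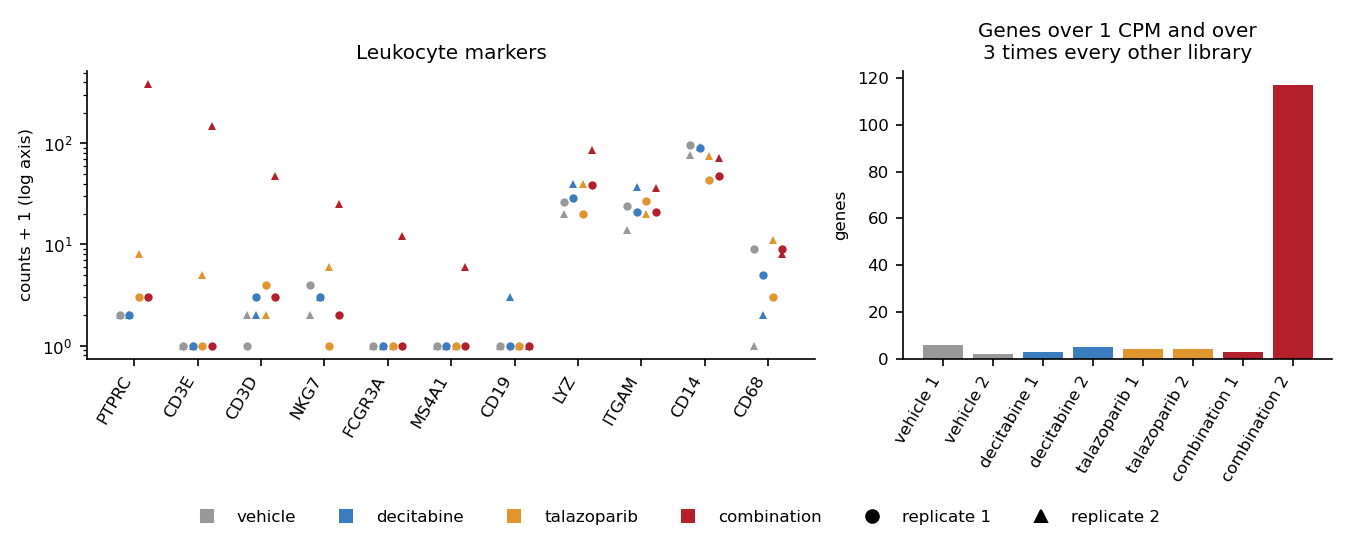
Left, counts (plus 1, log axis) of 11 leukocyte markers in the 8 EGI-1 libraries, with colours for arms and symbols for replicates. Right, the number of genes per library that exceeded 1 CPM and 3 times the level of every other library. Combination replicate 2 holds 117 such genes and 381 counts of PTPRC, and each other library holds 2 to 6 such genes.

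Of 22406 genes tested, 304 were higher and 127 lower when decitabine was added to talazoparib (edgeR quasi-likelihood test, Benjamini-Hochberg adjusted p under 0.05). The 431 called genes were 1.92% of those tested, with 1.36% higher and 0.567% lower. The rises were mostly modest: the median called rise was 0.51 on the log2 scale and 49 of the 304 exceeded 1. The median fall was 0.59 on that scale in size, and 9 of the 127 exceeded 1. Protein-coding genes made up 98.4% of the risers and 90.6% of the fallers, against 61.4% of all genes tested. The median log2 change of all genes tested was -0.01. Of the 304 risers 7 passed the count filter only through the combination libraries, as did 344 of all genes tested. Exons of 97 risers (31.9%) overlap a gene on the opposite strand, against 36.5% of all genes tested, and the strand setting of the counting is not stated.

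The count of calls depended on which libraries entered the fit. It was 230 without vehicle replicate 1, 229 without vehicle replicate 2, 100 higher and 64 lower without talazoparib replicate 1, 111 without talazoparib replicate 2 and 151 without combination replicate 2. Without decitabine replicate 1 or 2 it rose to 1007 and 993, and the chi-square per gene between replicates was largest in the decitabine arm (10.5, against 2.73 to 5.17 in the others). Of the 151 genes called without combination replicate 2, 141 were among the 431. Without combination replicate 1, which leaves the library with the leukocyte markers as the only one of its arm, 440 genes were called and 230 of them were among the 431. Stability was followed for 93 called genes, which are H2AC4 and the called genes named in the text other than VWF. Of these, 25 kept their call under all 16 alternatives tried and 0 changed sign. They were the histone genes H1-3, H1-5, H2AC8, H2AC16, H2BC7, H2BC10, H2BC14, H2BC18, H3C12 and H3C13, the other fallers IRF7 and LMNB1, and the risers MMP1, CPA4, ADAM19, CDKN1A, KRT17, ITGA5, ICAM1, TNFAIP3, IL11, IL1RN, NUAK2, ANKRD1 and GPR132. The other 68 lost it in at least 1, most often without a talazoparib library (54 and 63 calls lost) or without combination replicate 2 (54), and 31 lost it without combination replicate 1. An exact permutation test of 2 against 2 libraries cannot give a two-sided p below 0.333, so calls rest on the model fitted across genes.

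The 54 calls lost without combination replicate 2 had adjusted p from 0.0522 to 0.573 there, and the genes kept a median of 92.1% of their log2 change. The change shrank most in PREX1, JAK3, OAS2, KCNQ1OT1, WIPF1, TRIM22, LCK, RUNX3 and the 5.8S ribosomal RNA entry, which kept between 44.1% and 73.7% of it, and IL2RB, SERPINB5 and HMGB2 each kept 75.6%. The other rises lost were those of AMOTL2, OSCAR, IL32, SEMA3B, ULBP2, RASSF2, JPT1, PRCD, TBXA2R, PNMA2, CHAC1, CSF3, IL24, TM7SF2, LATS2, MMP14, PCMTD2, STOM, COL6A2, RELB, PLAU, VTCN1, DKK1, GRID1 and CSF2. The other falls lost were those of MCM6, RNA5SP156, PDE3A, FFAR4, MCM5, PCDHB12, BTBD7, VEGFA, PCNA, H4C15, NFKBIA, DDIT4, DUT, MKI67, CDC20, PSRC1 and PHGDH.

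The 15 largest rises among genes of at least 1 average log2 CPM were led, among mRNAs, by MMP1, the interstitial collagenase. MMP1 was at 1.85 and 1.94 CPM with talazoparib and at 6.91 and 7.0 CPM with the combination, a log2 rise of 1.87 ± 0.19 (SE, adjusted p = 1.78e-05). Its 2 combination libraries nearly coincided, and both lay well above the talazoparib libraries. The carboxypeptidase gene CPA4 stood at 8.87 and 8.32 CPM with talazoparib and 19.6 and 18.6 CPM with the combination, a log2 rise of 1.15 ± 0.12 (adjusted p = 1.78e-05). IGDCC4, an immunoglobulin superfamily membrane protein gene, went from 1.89 and 1.81 CPM to 5.58 and 4.38 CPM, a log2 rise of 1.42 ± 0.22 (adjusted p = 0.0017). CYGB, the globin gene cytoglobin, was at 2.32 and 1.66 CPM and then at 5.06 and 5.14 CPM (log2 rise 1.37, adjusted p = 0.00208). CYGB and PRCD (log2 rise 1.16, adjusted p = 0.0121) overlap on opposite strands, so their reads may have been counted together.

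Other members of this group include receptor genes. The G protein-coupled receptor GPR132 rose by 1.16 and the thromboxane receptor TBXA2R by 1.28 on the log2 scale, with adjusted p of 0.00154 and 0.0042. Without combination replicate 2 the change of TBXA2R was 1.08 (adjusted p = 0.105). HAP1, the huntingtin-associated protein gene, rose by 1.45 (adjusted p = 0.0116), and CYB5R2, a cytochrome b5 reductase gene, by 1.15 (adjusted p = 0.0042). That both combination libraries exceeded both talazoparib libraries was a condition for entering this group.

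Genes best known from blood cells were also among the largest rises, and in these the combination libraries differed from each other. LCK, the T cell kinase, was at 3.75 and 3.27 CPM with talazoparib and at 6.82 and 11.7 CPM with the combination. WIPF1, an actin regulator, was at 2.32 and 3.12 CPM and then at 5.71 and 11.1 CPM. JAK3 was at 2.84 and 2.48 CPM and then at 4.25 and 8.10 CPM. Combination replicate 2, the library with the leukocyte markers, was the higher one for each. Replicate 1 also lay above both talazoparib libraries, an order that was required of this group. Without replicate 2 the log2 change of LCK went from 1.41 to 0.97 (adjusted p = 0.134), that of WIPF1 from 1.62 to 1.06 (adjusted p = 0.105), that of JAK3 from 1.23 to 0.68 (adjusted p = 0.404) and that of the Rac activator gene PREX1 from 1.33 to 0.59 (adjusted p = 0.573). Of the 304 risers, 22 (7.24%) had over 1.5 times as many CPM in combination replicate 2 as in replicate 1, and 2 the reverse. The 5.8S ribosomal RNA entry, a multicopy gene, went from 0.387 and 0.393 CPM to 1.33 and 2.72 CPM and lost its call in the same way (log2 change 2.39, or 1.76 without replicate 2, adjusted p = 0.15).

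**Figure D2:**
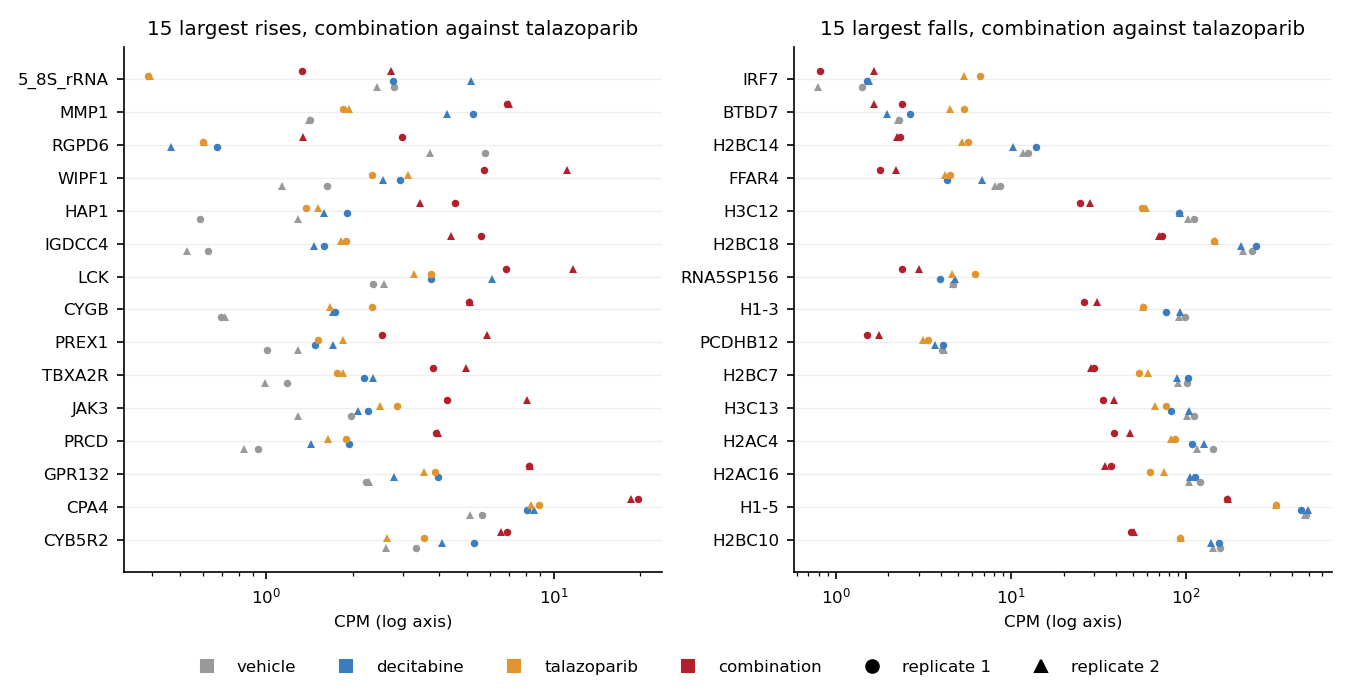
CPM (log axis) of the 15 genes with the largest called rises (left) and the 15 with the largest called falls (right) in each of the 8 EGI-1 libraries, with colours for arms and symbols for replicates. For MMP1 the combination libraries sit at 6.91 and 7.0 CPM, and for H1-5 at 172 and 174 CPM against 325 and 326 with talazoparib.

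The promoters of the risers IGDCC4 and CPA4 differed widely in CpG content, the substrate of DNA methylation. Among all 27305 promoters of the same length the quartiles of the CG count were 3 and 28. Below are 300 bases of each, 250 before and 50 after the start, from RefSeq on GRCh38.p14, 5′ to 3′ on the gene's strand, with each CG in capitals. IGDCC4 (chr15:65422898-65423197, minus strand) holds 48 CG and CPA4 (chr7:130292911-130293210, plus strand) holds 1. Of the 304 risers 215 (70.7%) had a promoter in this RefSeq set, against 55.6% of all genes tested. The CG content of risers was not compared with that of other genes. No methylation was measured in these libraries.
IGDCC4: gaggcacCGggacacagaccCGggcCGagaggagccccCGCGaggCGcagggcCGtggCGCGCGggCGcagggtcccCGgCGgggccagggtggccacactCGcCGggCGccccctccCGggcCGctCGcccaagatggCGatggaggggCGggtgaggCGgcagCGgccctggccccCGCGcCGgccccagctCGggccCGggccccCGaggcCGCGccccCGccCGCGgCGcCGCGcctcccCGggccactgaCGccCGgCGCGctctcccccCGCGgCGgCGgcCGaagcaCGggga
CPA4: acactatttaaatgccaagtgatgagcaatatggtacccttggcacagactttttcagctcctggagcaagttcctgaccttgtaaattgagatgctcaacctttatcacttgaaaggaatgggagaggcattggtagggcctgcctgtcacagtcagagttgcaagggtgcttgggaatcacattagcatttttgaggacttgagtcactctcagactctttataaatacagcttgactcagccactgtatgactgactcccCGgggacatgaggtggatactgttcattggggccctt

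Nearly all genes that rose with decitabine on top of talazoparib also had values above 0 for decitabine alone. Of the 304 risers, 300 (98.7%) had a log2 fold change above 0 in decitabine against vehicle, where 50.8% of all genes tested did. Their median was 0.39 without talazoparib and 0.51 with it. The genes were selected by the comparison with talazoparib present, which tends to enlarge the latter median. These medians therefore do not measure a difference between the effects. MMP1 had a log2 change of 1.75 ± 0.20 without talazoparib (1.42 and 1.4 CPM with vehicle, 5.22 and 4.25 CPM with decitabine), and IGDCC4 one of 1.4. Decitabine against vehicle called 122 genes (0.544%), 116 higher (0.518%) and 6 lower (0.0268%), and this count was 24 or 22 without vehicle replicate 1 or 2 and 417 or 287 without decitabine replicate 1 or 2. In both comparisons 75 genes were called higher. These were 24.7% of the risers with talazoparib present and 64.7% of those without it.

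The exceptions were few. Only RGPD6, IL2RB, STOM and PCMTD2 were called higher with talazoparib present and had a log2 change below 0 without it. IL2RB, the interleukin-2 receptor beta chain of lymphocytes, had 2 and 8 counts with talazoparib and 24 and 75 with the combination, and its adjusted p without combination replicate 2 was 0.209. STOM, encoding the membrane protein stomatin, had 5 and 0 counts with talazoparib and 20 and 35 with the combination, too few for a stable fold. STOM passed the count filter only through the combination libraries. PCMTD2 was at 3.40 and 4.36 CPM and then at 6.82 and 7.03 CPM (log2 rise 0.82, adjusted p = 0.0201), against -0.20 for decitabine alone.

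**Figure D3:**
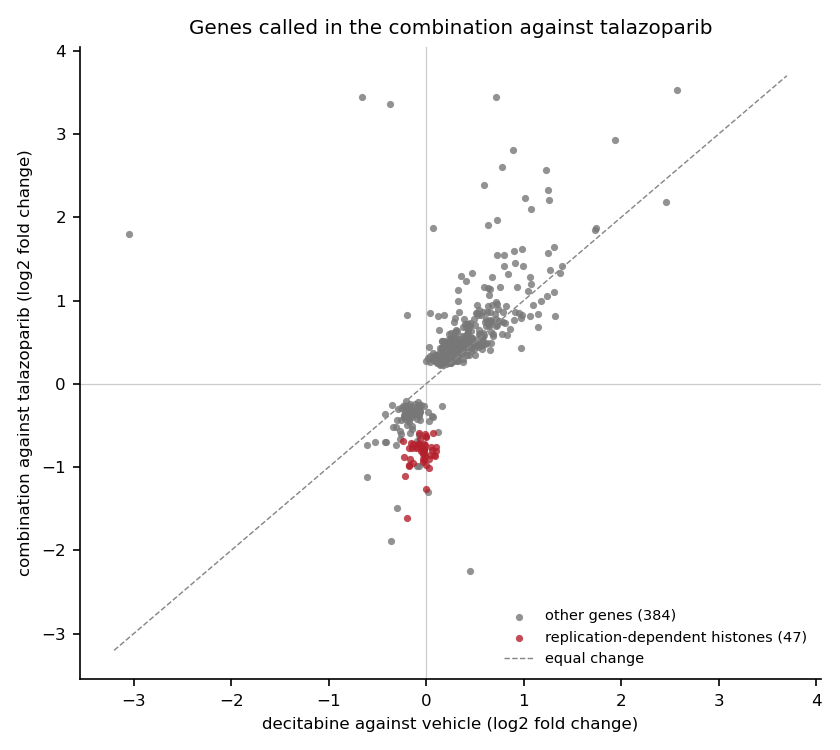
Log2 fold change of the 431 called genes in the combination against talazoparib (vertical) and in decitabine against vehicle (horizontal), with 47 replication-dependent histone genes in red and the dashed line marking equal change. Risers lie to the right of 0 in 300 of 304 cases. The histone genes lie below 0 vertically and from -0.24 to 0.10 horizontally, most of them slightly below 0.

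Replication-dependent histone genes were the main group that fell. Of 60 tested, 47 fell and 0 rose, and their median log2 change was -0.78, against a median of -0.01 over all genes and a share of 0.567% of all genes called lower. In 56 of the 60 both combination libraries lay below both talazoparib libraries, an order held by 22.1% of all genes tested. Summed over the list, these genes stood at 6180 and 6280 CPM with talazoparib and at 3470 and 3760 CPM with the combination. The vehicle libraries were at 9460 and 8500 CPM and the decitabine libraries at 8730 and 8870 CPM. From high to low came vehicle and decitabine, whose libraries overlapped, then talazoparib, then the combination, and neither of the last overlapped with another arm. In bulk RNA, fewer cells in S phase and less histone mRNA per cell cannot be told apart.

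All 5 histone classes took part. Among linker H1 genes 4 of 5 fell, among core H2A genes 11 of 13, H2B genes 16 of 16, H3 genes 8 of 12 and H4 genes 8 of 14. The class medians lay close together, from -0.80 for H1, H2A and H2B and -0.79 for H3 to -0.72 for H4 on the log2 scale. Summed H2B genes went from 1520 and 1560 CPM to 883 and 933 CPM, and summed H1 genes from 997 and 1020 CPM to 550 and 577 CPM. The 13 genes that did not pass the test averaged at most 122 CPM with talazoparib, and 3 of them, H1-1, H4C4 and the testis-type H3-4, had log2 changes above 0 at under 1 CPM. Many of these genes are alike in sequence, and the treatment of reads that match more than a single histone gene is not given in the sources used here.

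Single histone genes gave the smallest adjusted p-values of the comparison. H1-5, a linker histone gene on chromosome 6, was at 325 and 326 CPM with talazoparib and at 172 and 174 CPM with the combination. Its log2 change was -0.91 ± 0.06 (adjusted p = 1.92e-07), and its level was 487 and 480 CPM with vehicle and 456 and 493 CPM with decitabine. H2BC18, a core H2B gene on chromosome 1, went from 144 and 146 CPM to 73.3 and 70.0 CPM (log2 change -1.02, adjusted p = 2.84e-06). H3C12, which encodes core H3, went from 56.3 and 58.8 CPM to 25 and 28.3 CPM (log2 change -1.11, adjusted p = 7.64e-07). The largest called falls were in the sparse H4C15, at 26 and 33 counts and then 7 and 11 (log2 change -1.61, adjusted p = 0.0312), and in H2BC14, at 5.73 and 5.26 CPM and then 2.32 and 2.24 CPM (log2 change -1.27, adjusted p = 0.000753).

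The promoters of 44 of the 47 histone genes that fell were in the RefSeq table, and they carry the short boxes typical of histone promoters. CCAAT or its complement ATTGG occurred in 39 of the 44 (88.6%) and in 35.7% of all 27305 promoters of the same length. TATAAA or its complement TTTATA occurred in 28 (63.6%) and in 12% of all. These letters were chosen after the histone genes were seen to fall, and a match is a description only. H1-5 (chr6:27867539-27867838, minus strand) holds 2 CCAAT or ATTGG boxes and H2BC18 (chr1:149812321-149812620, minus strand) holds 1, shown in capitals.
H1-5: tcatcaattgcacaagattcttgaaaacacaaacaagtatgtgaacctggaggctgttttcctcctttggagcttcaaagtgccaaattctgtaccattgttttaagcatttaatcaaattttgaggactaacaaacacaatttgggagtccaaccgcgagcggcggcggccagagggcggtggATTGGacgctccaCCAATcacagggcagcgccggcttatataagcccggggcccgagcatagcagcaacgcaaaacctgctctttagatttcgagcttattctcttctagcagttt
H2BC18: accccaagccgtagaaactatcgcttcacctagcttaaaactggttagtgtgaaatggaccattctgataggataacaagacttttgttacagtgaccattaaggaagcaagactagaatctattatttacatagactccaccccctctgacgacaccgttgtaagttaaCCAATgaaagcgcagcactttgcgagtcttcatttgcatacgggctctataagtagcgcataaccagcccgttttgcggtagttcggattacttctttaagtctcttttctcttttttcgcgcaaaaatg

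With decitabine alone no such fall was called. In decitabine against vehicle 0 of the 60 histone genes were called by edgeR and 0 by DESeq2, 3 had an unadjusted p under 0.05, and their median log2 change was -0.02. Departure from the sum of the single effects, an interaction term of the same fit, was called for 36 genes (0.161%). Of these, 2 exceeded the sum (0.00893%) and 34 were under it (0.152%). The count was 85 without decitabine replicate 1. Of the 36, 32 were replication-dependent histone genes and all 32 lay below the sum. H2BC14 departed by -1.26 and H2BC18 by -1.04, and 13 of the 16 H2B genes were called against 3 of the 14 H4 genes. The count of 32 was 20 without vehicle replicate 2, and the count of 47 histone genes that fell stayed within 1.5 times under every alternative tried.

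Replacement and variant histones, which are made outside S phase as well, fell less than the replication-dependent ones. Of 12 tested, 1 fell and 0 rose, where 0.567% of all genes tested were called lower. Their median log2 change was -0.14, and 11 of the 12 were below 0. H2AX, the variant phosphorylated at DNA breaks, was at 827 and 737 CPM with talazoparib and at 670 and 663 CPM with the combination (log2 change -0.23, adjusted p = 0.0917). The list summed to 2210 and 2150 CPM with talazoparib and to 1980 and 2030 CPM with the combination.

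Cell cycle genes that fell did so by small amounts. In the S phase list of Seurat 3 of 43 genes fell and 0 rose, with a median log2 change of -0.07, where 0.567% of all genes tested were called lower. MCM6, a subunit of the replicative helicase, went from 133 and 139 CPM to 107 and 102 CPM (log2 change -0.38, adjusted p = 0.00227). MCM5 of the same complex changed by -0.33 and PCNA, the sliding clamp of DNA polymerases, by -0.26, with adjusted p of 0.00444 and 0.0232. In the G2/M list 4 of 54 genes fell, against the same 0.567%, and 1 rose, with 48 of the 54 below 0 and a median of -0.10. The proliferation marker MKI67 went from 891 and 966 CPM to 785 and 768 CPM (log2 change -0.26, adjusted p = 0.0392). The others that fell were the mitotic activator CDC20, the spindle gene PSRC1 and the chromatin gene HMGB2, with log2 changes of -0.25, -0.36 and -0.36, and JPT1 rose by 0.26. These calls were close to the threshold: MKI67, CDC20, PCNA and JPT1 each lost theirs in 8 of the 16 alternatives.

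LMNB1, the nuclear lamin whose loss is used as a senescence marker, went from 218 and 213 CPM to 167.02 and 173 CPM (log2 change -0.34 ± 0.06, adjusted p = 0.00245). CDKN1A, the p21 inhibitor of cyclin-dependent kinases, went from 92.0 and 89.5 CPM to 149 and 147 CPM (log2 change 0.71 ± 0.07, adjusted p = 2.47e-05). The libraries of each arm agreed closely for CDKN1A, which was also called with decitabine alone (log2 change 0.44, adjusted p = 0.00896). It was the only 1 of 38 p53 targets tested to be called, where 1.92% of all genes were, with 26 of the 38 above 0 and a median of 0.05. In the list of inhibitors, lamins and senescence markers, 1 of 22 rose and 2 fell, which were LMNB1 and HMGB2. Of all genes tested 1.36% were called higher and 0.567% lower. In this list 18 of the 22 were below 0, with a median of -0.125.

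Outside the replication-dependent histones 80 genes fell, and 72 of them (90.0%) were also below 0 with decitabine alone. Their medians were -0.39 with talazoparib present, the comparison that selected them, and -0.17 with decitabine alone, so the sizes are not comparable. PDE3A, a cyclic nucleotide phosphodiesterase gene, went from 9.73 and 9.80 CPM to 5.96 and 5.76 CPM (log2 change -0.74, adjusted p = 0.00369) and was also called lower with decitabine alone, as were CDC20 and PSRC1. FFAR4, a receptor for long-chain fatty acids, went from 4.52 and 4.23 CPM to 1.80 and 2.21 CPM (log2 change -1.11, adjusted p = 0.0126). PCDHB12 was the only 1 of 41 clustered protocadherins called, where 0.567% of all genes tested were called lower. It was at 3.36 and 3.15 CPM and then at 1.5 and 1.76 CPM (log2 change -0.98, adjusted p = 0.0198). Of the 41, 31 were below 0, and 10 of these had an unadjusted p under 0.05. The median of the list was -0.20. DUT, which hydrolyses dUTP, changed by -0.39. It was the only call among 21 genes of decitabine uptake and nucleotide metabolism, against the same 0.567%. The imprinted antisense RNA KCNQ1OT1 changed by -0.39 and PHGDH and DDIT4 of the serine synthesis and stress list by -0.24 and -0.29, with adjusted p between 0.0304 and 0.0444, while CHAC1 of that list rose by 0.63. RNA5SP156, a 5S ribosomal RNA pseudogene, changed by -0.99 (adjusted p = 0.015), and its reads may be shared with other copies.

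IRF7, a transcription factor of the interferon response, had the largest fall. It stood at 6.67 and 5.41 CPM with talazoparib and at 0.815 and 1.66 CPM with the combination (log2 change -2.25 ± 0.29, adjusted p = 0.000221). The vehicle libraries were at 1.42 and 0.796 CPM and the decitabine libraries at 1.52 and 1.55 CPM, so only the talazoparib arm was high. BTBD7 had a like order, at 5.42 and 4.51 CPM with talazoparib, 2.40 and 1.66 CPM with the combination and 1.97 to 2.65 CPM in the other 4 libraries (log2 change -1.30, adjusted p = 0.00499). IRF7, BTBD7, KRT34 and OSCAR are called genes with a transcript matched over at least 95% of its bases on an alternate scaffold of GRCh38, as 2198 genes have. Their counts therefore depend on whether those scaffolds were in the alignment reference, which is not stated.

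Secreted factors and their regulators were described as lists, chosen with earlier results of these data known, and no set test was run. Of 36 cytokines and colony-stimulating factors tested 6 rose and 1 fell, with a median log2 change of 0.18, where 1.36% of all genes tested were called higher and 0.567% lower. IL11, a cytokine of the IL6 family, went from 19 and 16 CPM to 31.6 and 29.9 CPM (log2 change 0.82 ± 0.11, adjusted p = 0.000231). IL1RN, the interleukin-1 receptor antagonist, went from 7.79 and 7.62 CPM to 14.4 and 13.4 CPM (log2 change 0.85, adjusted p = 0.000978). IL24 rose by 0.82, IL32 by 0.47 and CSF2 by 0.38, and the sparse CSF3, at 6 and 11 counts and then 28 and 45, by 2.19 (adjusted p = 0.0101, or 1.99 and 0.142 without combination replicate 2). Decitabine alone called 6 genes of the list higher, against 0.518% of all genes. The angiogenic factor gene VEGFA fell by 0.40 on the log2 scale. IL6 did not pass the test, at 3.36 and 3.02 CPM and then 4.81 and 4.21 CPM (log2 change 0.50, 95% confidence interval 0.08 to 0.91, adjusted p = 0.261).

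Of 10 chemokines tested 9 were above 0, with a median of 0.43, and 8 had an unadjusted p under 0.05, but only CXCL1 was called, where 1.36% of all genes were called higher. This neutrophil attractant went from 98.4 and 105 CPM to 141 and 122 CPM (log2 change 0.36, adjusted p = 0.0142). Among 25 NF-kB subunits and feedback regulators 4 rose and 1 fell, against 1.36% and 0.567% of all genes. NFKB2 went from 116 and 110 CPM to 156 and 141 CPM and TNFAIP3, a feedback inhibitor, from 124 and 134 CPM to 180 and 188 CPM, with log2 changes of 0.39 and 0.51. The adhesion molecule gene ICAM1 rose by 0.57 and the subunit gene RELB by 0.36, while NFKBIA, which encodes an inhibitor, changed by -0.34 (adjusted p = 0.0307).

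Of 31 genes of the plasminogen system and the matrix proteases 6 rose, where 1.36% of all genes were called higher, and 0 fell, with 26 of 31 above 0 and a median of 0.25. The metalloprotease gene ADAM19 went from 99.8 and 100 CPM to 147 and 146 CPM (log2 change 0.55, adjusted p = 4.74e-05). MMP1 is described above, and SERPINB5, the urokinase gene PLAU and the membrane-type metalloprotease gene MMP14 had log2 rises of 0.32, 0.23 and 0.25. SERPINB5 encodes a serpin and not a protease, and its change was 0.24 (adjusted p = 0.255) without combination replicate 2.

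Among structural genes, 3 of 17 keratins rose and 0 fell, where 1.36% of all genes tested were called higher. KRT17 went from 19.5 and 19.3 CPM to 38.4 and 36.8 CPM (log2 change 0.96, adjusted p = 1.98e-05), KRT7 rose by 0.42, and KRT34 had 4 and 10 counts and then 39 and 38. Of 21 collagens COL6A2, COL17A1 and COL7A1 rose, by 0.62, 0.53 and 0.43, so that 3 were called higher against the same 1.36%, and 17 of the 21 were above 0. Among 29 epithelial junction and mesenchymal genes 2 rose, against the same 1.36%. They were the fibronectin receptor subunit ITGA5, by 0.48, and L1CAM, a neural adhesion molecule, by 0.98. Of 22 YAP targets ANKRD1, NUAK2, LATS2 and AMOTL2 rose, by 0.58, 0.58, 0.31 and 0.29, against 1.36% of all genes called higher, and the list's median was 0.01. SOX9, a biliary transcription factor, was the only call among 23 lineage factors, against the same 1.36%, with a log2 rise of 0.35 (adjusted p = 0.00365).

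Genes known for promoter methylation in tumours changed in 4 of 25 cases tested, all upward, with a median of 0.14, where 1.36% of all genes tested were called higher. RASSF2, a RAS effector, went from 1.42 and 1.06 CPM to 3.13 and 4.0 CPM (log2 change 1.55 ± 0.27, adjusted p = 0.00444), and without combination replicate 2 the change was 1.36 (adjusted p = 0.0862). SEMA3B, a secreted semaphorin gene, went from 18.8 and 18.8 CPM to 27.9 and 25.8 CPM (log2 change 0.51, adjusted p = 0.0179), and RUNX3 and the Wnt antagonist DKK1 changed by 0.48 and 0.28. Without combination replicate 2 the value of RUNX3 was 0.34 (adjusted p = 0.417). Of the genes the study followed for re-expression, SFRP1, SOX17 and UCHL1 did not reach the count filter. UCHL1 had 0 counts in 6 libraries and 4 and 1 in the combination libraries, SFRP1 had 1 and 0 with talazoparib and 3 and 2 with the combination, and SOX17 had 0 in all 8. At this depth no difference was detectable for these 3 genes.

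Of 60 interferon-stimulated genes 2 rose and 1, IRF7, fell, with a median of 0.09, where 1.36% of all genes tested were called higher and 0.567% lower. The antiviral genes OAS2 (3.06 and 2.84 CPM, then 4.20 and 6.45 CPM) and TRIM22 (0.474 and 0.968 CPM, then 1.80 and 3.62 CPM) both lost their call without combination replicate 2, where their adjusted p was 0.486 and 0.327. The natural killer ligand gene ULBP2, 1 of 5 such genes tested, rose by 0.58 (adjusted p = 0.0171). The checkpoint ligand gene VTCN1, 1 of 13 tested, rose by 0.72 (adjusted p = 0.0349), or by 0.66 without combination replicate 2, where the call was lost. It was the only call in its list, where 12 of the 13 were above 0. MICB, at 20 and 16 counts and then 5 and 0, was not called (adjusted p = 0.119), and MICA was below the filter. MICB also has a transcript matched on an alternate scaffold, so its counts carry the limit given for IRF7. The paper's own MICA and MICB result was protein on the cell surface, which these counts do not measure. PNMA2 was the only call among 13 genes derived from retroelements (log2 rise 0.82, adjusted p = 0.00428). TM7SF2 was the only call among 24 cholesterol synthesis genes (log2 rise 0.41). Both stand against the same 1.36%. GRID1, an ionotropic glutamate receptor gene, was called from 1 and 1 counts with talazoparib and 10 and 14 with the combination. GRID1 passed the count filter only through the combination libraries, so its call is a description only. OSCAR, an osteoclast receptor gene, had 3 and 6 counts and then 28 and 23.

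The mRNAs of the drugs' own targets did not pass the test in either direction. Protein was not measured in these libraries, and the paper reports lower DNMT1 and DNMT3A protein after DNMT inhibitors. Talazoparib was present in both arms, so this comparison cannot show its effect on PARP1 or PARP2. DNMT1, the maintenance methyltransferase, was at 454 and 437 CPM with talazoparib and at 435 and 421 CPM with the combination (log2 change -0.06, 95% confidence interval -0.17 to 0.06). PARP1 was at 277 and 276 CPM and then at 269 and 265 CPM (log2 change -0.05, interval -0.17 to 0.06). DNMT3B had a log2 change of 0.19 (interval 0.03 to 0.35, adjusted p = 0.275), DNMT3A of 0.00, UHRF1, which guides DNMT1 to replicated DNA, of -0.19 (adjusted p = 0.116) and PARP2 of -0.12. Across 40 lists, 12 had 0 genes called by edgeR. They were the DNA methylation machinery (17 tested), the PARP family (22), Fanconi anemia and homologous recombination (34), the DNA damage checkpoint (26), the BCL2 family (19), cancer-testis and germline genes (15 tested of 90), MHC class I presentation (15), AP-1 and immediate-early genes (29), IGF binding proteins (4), mucins (6), metallothioneins (3) and drug efflux transporters (12). With 1.92% of all genes called, lists of this length would hold few calls at the share of all genes. DESeq2 called 0 of their 202 genes as well, and 37 (18.3%) had an unadjusted p under 0.05, where 13.3% of all genes did, among them 9 higher and 1 lower in the AP-1 list.

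Outside the histones, 4 genes departed from the sum of the single effects. For IRF7 the departure was -2.70 and for FST, the activin antagonist follistatin, it was -0.76. FST was at 31.6 and 32.2 CPM with vehicle, 46.2 and 48.0 CPM with decitabine, 76.8 and 76.3 CPM with talazoparib and 65.3 and 67.8 CPM with the combination, with log2 changes of 0.56 for decitabine alone (adjusted p = 0.000783) and -0.20 for decitabine on talazoparib (adjusted p = 0.162). RGPD6 and SPCS2P4, a gene and a pseudogene with near-identical relatives, departed upward by 4.85 and 2.74. RGPD6 was at 5.75 and 3.71 CPM with vehicle, below 1 CPM in both single-drug arms and at 2.96 and 1.34 CPM with the combination, and reads that match its relatives make these values uncertain.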

How the data were processed

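RNA was sequenced from EGI-1 cells. Per the study's methods, a stranded total RNA kit with ribosomal RNA depletion was used and reads were trimmed with fastp, aligned to GRCh38 with STAR and quantified with RSEM. The submitters' processing notes instead list fastp, Trim Galore, HISAT2 and featureCounts. The authors deposited raw counts per gene, whole numbers without normalization, for 60651 genes. Strand setting, annotation and the treatment of reads matching several genes are not stated. Depths were 23139065 to 33181930 counts in the 8 libraries, and precision is limited by 2 libraries per arm.

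Groups came from the sample labels. Counts were fitted in edgeR 4.0.16 (R 4.3.3) over 8 libraries with filterByExpr (minimum count 10), TMM factors and a robust quasi-likelihood fit, with Benjamini-Hochberg adjustment over 22406 genes. CPM use TMM-scaled library sizes. Standard errors were derived from the log2 fold change and its F statistic. Coordinates and strand overlaps came from GENCODE 44 (bedtools 2.31.1), promoters from RefSeq GRCh38.p14, and scaffold copies from minimap2 2.31. Scripts were tested on simulated data. Replicate numbers did not pair the libraries across all arms, and the fit has no replicate block (see the last section).

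The members and lists were chosen with earlier results of these data known. Named genes were the 15 largest called rises and falls with at least 1 average log2 CPM and arms that do not overlap, up to 4 called genes per list, targets and genes the study followed, the 5 largest departures in each direction, members of counts of 5 or fewer, and called genes with at most 3 counts in each talazoparib library. IL32, CSF2, VEGFA, PLAU, MMP14 and the markers were named beyond this rule, after their values were seen. Some genes that the rule covers are not reported here. Alternatives were other scaling, no filter, DESeq2 1.42.0, fewer libraries, replicate blocks and leaving out each library.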

Additional observations from a re-analysis of the deposited data

Results flagged for a closer look

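The effect of decitabine differed between cells with and without talazoparib, by the interaction term of the edgeR fit, for 13 genes named in the text. Values are log2 departures from additivity of both drugs. Negative departures were found for the histone genes H2BC14 (-1.26), H2BC18 (-1.04), H2BC7 (-0.97), H2AC8 (-0.949), H2AC16 (-0.902), H3C12 (-0.888), H1-5 (-0.885), H2BC10 (-0.879) and H1-3 (-0.812). IRF7 (-2.7) and FST (-0.764) departed in the same direction. RGPD6 (4.85) and SPCS2P4 (2.74) departed upward, and both have near-identical relatives that may share reads with them.

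In combination replicate 2 the 11 leukocyte markers summed to 27.8 CPM, above the 4.06 to 6.66 CPM of the other libraries, in genes outside the comparison's lists. The values of LCK, WIPF1, JAK3, PREX1, OAS2, TRIM22 and IL2RB without that library stand beside them in the text. With 2 libraries per arm, single libraries could not be tested as outliers.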

How the results depend on the processing

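The called genes of the combination against talazoparib numbered 431, and 897 without the low-count filter, 700 with only the 4 libraries of both arms, 249 with a replicate block by the numbers in the titles, 1033 in a fit of 6 libraries without the decitabine arm (added after the data were seen), and from 111 (without talazoparib replicate 2) to 1007 (without decitabine replicate 1) on leaving out each library. RLE factors, upper-quartile factors, DESeq2 and a block by the series in the library names gave 300 to 440. For decitabine against vehicle the count went from 122 to 335 without the filter, 43 with only its 4 libraries, 60 and 75 under the replicate blocks, and 22 to 417 on leaving out each library. The departure called 36 genes, 71 without the filter, and 27 to 85 on leaving out each library, where its histone genes numbered 20 to 36. The uncalled DNMT3A took the sign below 0 with upper-quartile factors (-0.01587), without the filter (-0.0005785) and in the range from -0.05802 to 0.06851 on leaving out libraries, with -0.05556 without combination replicate 1. Of list medians, 53 of 640 moved beyond the spread between libraries.

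Same-numbered libraries had correlations of their deviations from -0.255 to 0.209, so the numbers do not pair them across all arms. The highest, 0.209, was that of talazoparib replicate 1 with combination replicate 1, which the library names also place in the same series. Whether the 4 libraries compared were paired was not tested, and the blocked counts are given as alternatives. Of 249 calls under the block by title number, 245 were among the 431, and of 300 under the block by name series, 294 were. The cause of these changes was not tested. Depth limits statements on genes with few counts, and 2 libraries per arm limit all others.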
